A study of Mus musculus with 2 samples.

Results

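The 32 genes described here encode the collagens, elastic fibre proteins, crosslinking enzymes, proteoglycans and glycoproteins that make up the interstitial matrix of the lung. They were chosen by name: 6 fibrillar collagens, 4 collagens of beaded filaments or short chains, 2 fibril-associated collagens, 5 elastic fibre genes, 3 crosslinking enzymes, 4 small leucine-rich proteoglycans and 8 glycoproteins. Earlier results of these data were known when they were chosen, so counts of members set against all genes are not an independent test. All 32 were found in both count tables, which together list 24417 genes, and all 32 passed the filter on low counts in fibroblast-like cells. The study sequenced single cells of lungs from C57BL/6 mice, either wild type (WT) or CCR2-/- (written CCR2KO here). CCR2 is the chemokine receptor by which inflammatory monocytes leave the bone marrow and enter injured tissue. Every mouse had received silica into the trachea at 400 mg/kg, and lungs were harvested on days 3, 7 and 21, so neither genotype has an untreated group. Suspensions were told apart by hashtags, barcoded antibodies that stick to every cell, and those of a genotype were loaded together on 1 BD Rhapsody cartridge, a microwell device. The WT library had 9 hashtags and the CCR2KO library 8. They were read in blocks of tag names: A0301 to A0303 (block 1), A0304 to A0306 (block 2), and from A0307 on (block 3), with 3 hashtags in each block of each genotype except block 3 of CCR2KO, which had 2. The labels do not say which hashtag belongs to which day, so blocks are compared only as blocks. Nothing says either that a hashtag stands for 1 animal, and p-values then measure only the spread between tagged suspensions.

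Interstitial matrix is built outside the cell. Fibroblasts secrete fibrillar procollagens, which are trimmed, assembled into fibrils and then crosslinked by lysyl oxidases, while small proteoglycans and fibril-associated collagens bind the fibril surface and set its diameter. Elastin is deposited on microfibrils of fibrillin and crosslinked by the same enzyme family, which gives the alveolar wall its recoil. Inhaled silica is a classic cause of nodular lung fibrosis, in which fibroblasts lay down fibrillar collagen together with matricellular glycoproteins such as periostin and tenascin C.

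The block-to-block change of 7 members differed between the genotypes in all fibroblast-like cells (values below): Bgn, Col1a2, Col3a1, Fmod, Mfap5, Postn and Sparc. RefSeq promoter sequence (GRCm38.p6) was at hand for 18 of the 32 members, among them 6 of these 7, and 4 of those 6 hold a TATA box, a CCAAT box or a GC box in the 250 bases before the transcription start. These 4 are shown so that the promoters of members called by that test can be compared, 5′ to 3′ on the gene's strand, with the matches in capitals. The window of Col1a2, the second chain of type I collagen, is chr6:4505368-4505617 on the plus strand; that of Col3a1, type III collagen, is chr1:45311288-45311537, plus strand. The window of Postn, periostin, is chr3:54360857-54361106, plus strand, and that of Bgn, biglycan, is chrX:73483351-73483600, plus strand.
Col1a2: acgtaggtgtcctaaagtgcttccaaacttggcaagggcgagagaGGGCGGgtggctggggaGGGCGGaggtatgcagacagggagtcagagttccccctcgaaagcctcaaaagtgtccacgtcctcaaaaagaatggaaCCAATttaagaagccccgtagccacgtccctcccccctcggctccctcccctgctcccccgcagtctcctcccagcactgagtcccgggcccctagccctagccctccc
Col3a1: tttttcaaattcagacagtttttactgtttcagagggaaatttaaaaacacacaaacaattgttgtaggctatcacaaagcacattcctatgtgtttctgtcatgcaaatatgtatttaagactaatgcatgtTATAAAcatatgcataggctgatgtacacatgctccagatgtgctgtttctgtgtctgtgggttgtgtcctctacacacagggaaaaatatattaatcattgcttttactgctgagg
Postn: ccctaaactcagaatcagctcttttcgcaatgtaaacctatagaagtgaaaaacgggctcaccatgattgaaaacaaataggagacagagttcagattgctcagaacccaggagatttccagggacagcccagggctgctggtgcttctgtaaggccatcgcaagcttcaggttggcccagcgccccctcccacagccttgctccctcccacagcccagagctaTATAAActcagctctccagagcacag
Bgn: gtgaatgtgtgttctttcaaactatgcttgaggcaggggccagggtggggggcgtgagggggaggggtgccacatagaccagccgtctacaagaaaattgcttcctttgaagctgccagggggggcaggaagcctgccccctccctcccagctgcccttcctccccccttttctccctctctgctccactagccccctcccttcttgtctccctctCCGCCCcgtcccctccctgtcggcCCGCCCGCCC
The windows differ in base composition: GC content was 62.0% for Col1a2, 35.2% for Col3a1, 52.0% for Postn and 64.4% for Bgn. Col1a2 has 2 GC boxes and a CCAAT box, Col3a1 a TATA box 117 bases before the start, Postn a TATA box 26 bases before it, and Bgn 3 GC boxes on the opposite strand, a pair of them overlapping. Searched on both strands over the 18 members' windows, TATAAA was in 22.2% of them against 12.97% of all 27025 promoter windows in the table, CCAAT in 16.7% against 34.5%, and GGGCGG in 55.6% against 32.9%. The sites of factors often named in wound responses were in few: TGANTCA (AP-1) in 5.56% against 6.87%, GGAATG (TEAD) in 5.56% against 12.6% and TGTGGT (RUNX) in 11.1% against 14.2%. These are matches of letters in a short window, counted over genes that were picked by name.

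After removal of doublets and of cells under 200 genes or over 25% mitochondrial reads, the libraries held 16857 WT and 14882 CCR2KO cells. Each hashtag had 1609 to 2101 of them in WT and 1618 to 2047 in CCR2KO, with 54043860 to 91786583 reads. The deposited values look like reads and not molecules, so their number does not give the number of molecules counted and is no measure of precision. The deleted gene, Ccr2, stood at 53.8 to 101 CPM (counts scaled to the depth of each hashtag) in the WT hashtags and at 1.45 to 4.39 in those of CCR2KO, without overlap. Cells were clustered without the 32 members and named from marker genes, none of which is a member. Members were still among the 10 leading genes by fold of some fibroblast clusters: Fmod, Tnc and Thbs2 in activated cells and Dcn, Lum and Col14a1 in adventitial cells. Fibroblast-like cells numbered 2733 in WT and 3062 in CCR2KO: alveolar fibroblast-like cells (led by Inmt, Npnt and Itga8), adventitial fibroblast-like cells (Pi16, Has1, Scara5) and activated fibroblast-like cells (Sfrp1, Grem1, Saa3). A part of the alveolar class, 201 WT and 135 CCR2KO cells of cluster 26, had the highest mean Scrublet doublet score of all clusters, 0.138. Cell numbers in column names were shared between the libraries for 272 kept cells, and 27 of these, 9.93%, fell in the same class in both libraries, against 8.60% from class sizes.

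Fibroblast-like cells held 78.6% to 87.7% of the members' reads in each hashtag. At a fixed depth of 5000 reads per cell, Col1a2, Col3a1, Bgn and Sparc had a read in 95.6% to 99.4% of WT activated and adventitial fibroblast-like cells, while B cell-like cells, which should lack them, had one in 10.0%, 13.5%, 7.45% and 18.0%. Shares at or below these in blood cells are read as background. By mean level over hashtags, 12 of 32 members were highest in WT activated fibroblast-like cells, 12 in adventitial, 5 in alveolar, and 3 in mural clusters. In CCR2KO those counts were 11, 13, 5 and 3, with the same population highest in both genotypes for 22 members. Populations were made from the same cells, so these levels are a description.

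**Figure D1:**
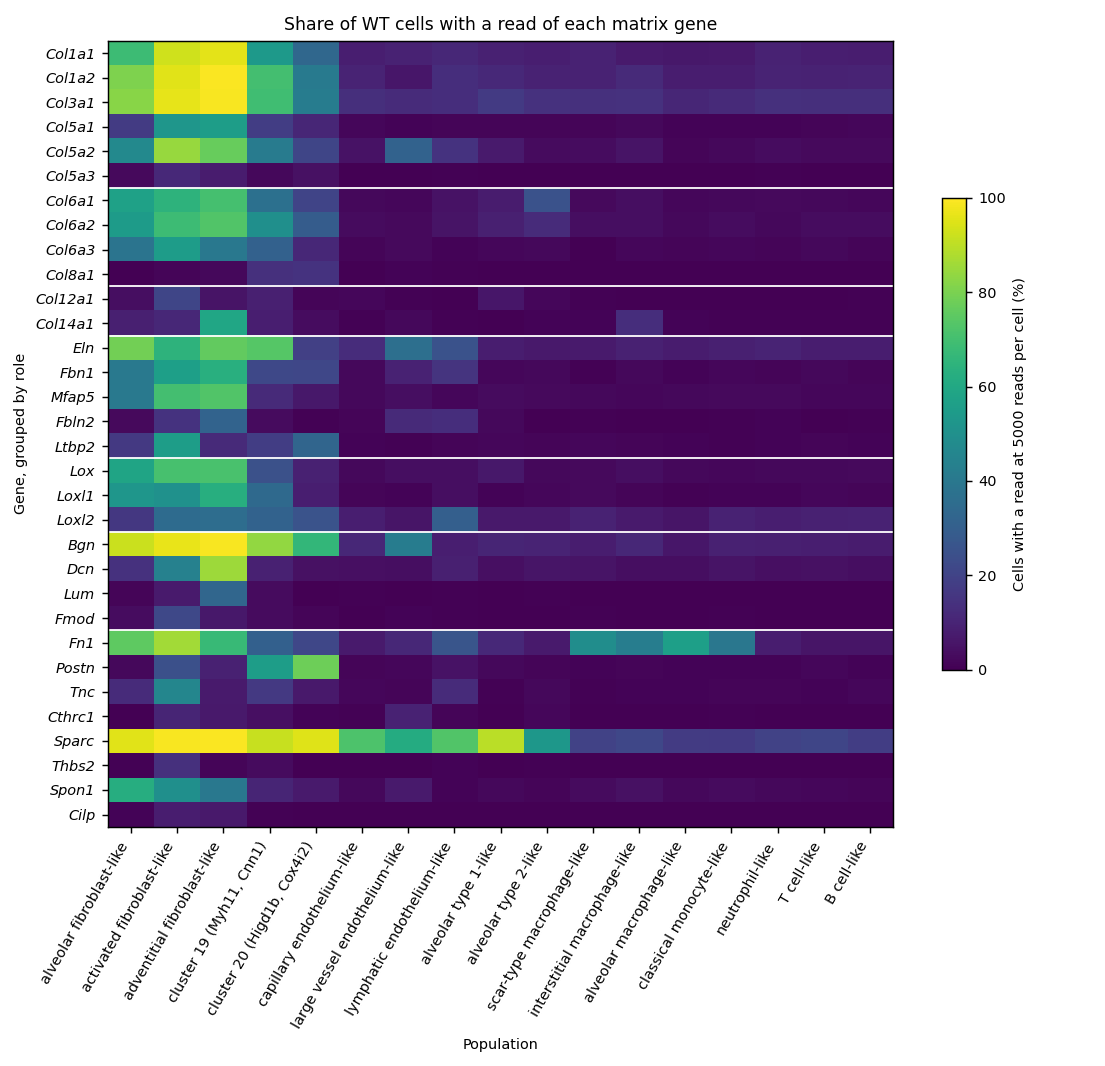
Share of WT cells (color, in %) with at least 1 read of each member after drawing every cell down to 5000 reads; rows are genes grouped by role, columns are populations. The fibroblast columns are the brightest for most rows, Postn and Col8a1 are brightest in clusters 19 and 20, and Fn1 and Sparc reach macrophage, endothelial or epithelial columns.

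The fibrillar collagens were highest in adventitial or activated cells. Col1a1, the main chain of type I collagen, averaged 4899 ± 761 CPM (SD, n = 9 hashtags) in WT adventitial cells, 3612 ± 1594 in activated cells and 1332 ± 750 in cluster 19, and in CCR2KO adventitial cells 4291 ± 794 (n = 8). Col3a1 averaged 7946 ± 1203 CPM in WT adventitial, 4452 ± 885 in activated and 2674 ± 572 in alveolar cells. Type V chains, which nucleate collagen I fibrils, were less sharply divided: Col5a1 averaged 362 ± 72.8 CPM in WT adventitial and 358 ± 108 in activated cells, a gap well inside the spread. Col5a2 was higher in WT activated cells, 1183 ± 237 CPM, than in adventitial cells, 913 ± 115, with partly overlapping spreads, and Col5a3 was sparse, with a read in 11.4% of WT activated cells. Type VI collagen, a beaded filament around cells, was spread more evenly. Col6a1 averaged 741 ± 122 CPM in WT alveolar, 647 ± 137 in activated and 608 ± 98.8 in adventitial cells, and Col6a2 800 ± 155 in activated and 799 ± 177 in adventitial cells. Col6a3 averaged 470 ± 78.2 CPM in WT activated and 456 ± 118 in alveolar cells, and less, 251.5 ± 67.6, in adventitial cells.

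For other members the fibroblast types stood in another order, in some within the spread between hashtags. The proteoglycan Dcn, decorin, averaged 6604 ± 1482 CPM in WT adventitial cells against 1268 ± 429 in activated and 422.5 ± 221 in alveolar cells. Lum, lumican, averaged 388 ± 213 CPM in WT adventitial cells and 56.8 ± 39.8 in activated cells. The fibril-associated collagen Col14a1 reached 620 ± 124 CPM in WT adventitial cells, above the next population, cluster 19, at 94.2 ± 69.6. Alveolar cells led for Spon1, an F-spondin glycoprotein, at 830 ± 124 CPM against 375 ± 100 in activated cells, and for Loxl1, the lysyl oxidase of elastic fibres, at 655 ± 141 against 526 ± 121 in adventitial cells, with overlapping spreads for Loxl1. Activated cells led for the fibril-associated collagen Col12a1 (126 ± 34.4 CPM in WT), for Fmod, fibromodulin (156 ± 99.05), for Tnc, tenascin C (554 ± 319), and for Thbs2, thrombospondin 2 (73.0 ± 45.1). Elastin, Eln, was highest in WT alveolar cells at 4015 ± 1628 CPM, then in cluster 19 at 3160 ± 1828 and in adventitial cells at 2663 ± 896, with overlapping spreads.

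Mural cells and leukocytes held part of the module. Cluster 19, led by the smooth muscle genes Myh11 and Cnn1, and cluster 20, led by the pericyte genes Higd1b and Cox4i2, held 20.5% and 38.8% of the WT reads of Postn and 38.1% and 34.7% of those of Col8a1. Postn averaged 2124 ± 544 CPM in WT cluster 20, with a read in 78.0% of cells at 5000 reads, 1083 ± 498 in cluster 19 and 225 ± 128 in activated fibroblast-like cells. All fibroblast-like cells together held 33.7% of WT Postn reads and 14.4% of WT Col8a1 reads. Loxl2, another lysyl oxidase, averaged 268 ± 54.0 CPM in WT cluster 19 and 204 ± 48.2 in activated cells. Fn1, fibronectin, had 61.6% of its WT reads in fibroblast-like cells and 80.3% of its CCR2KO reads. Scar-type macrophage-like cells, led by Mmp12 and Gpnmb, held 10.9% of Fn1 reads in WT and 1.42% in CCR2KO, and classical monocyte-like cells 6.56% and 0.439%; these classes numbered 924 and 1201 cells in WT against 126 and 185 in CCR2KO. In reads summed over the class in each hashtag, WT scar-type macrophage-like cells averaged 1374 ± 778 CPM of Fn1 (n = 9). Those of CCR2KO averaged 1068 ± 769 (n = 5 hashtags with enough cells), a gap smaller than either SD. Sparc, a collagen-binding glycoprotein, was also read in WT alveolar type 1-like cells (3756 ± 1103 CPM) and capillary endothelium-like cells (2536 ± 367), the latter holding 12.3% of its reads.

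In all fibroblast-like cells of WT, type I collagen and fibronectin rose from block 1 to block 2. At TMM-adjusted CPM, Col1a1 stood at 2100, 2844 and 3286 in the hashtags of block 1 and at 5087, 4165 and 5180 in block 2. The groups did not overlap, and the log2 change was 0.81 ± 0.12 (SE). Col1a2 stood at 3121, 3864 and 3984 CPM and then at 5776, 5129 and 6237, again without overlap, a change of 0.64 ± 0.09. Fn1 stood at 1523, 1279 and 1678 CPM and then at 3021, 2671 and 2990, a change of 0.95 ± 0.11, every block 2 hashtag being higher. Adjusted p-values over all genes from edgeR's quasi-likelihood test were 0.0024, 0.0023 and 0.00020. Col12a1 (0.97 ± 0.18, adjusted p = 0.024) and Tnc (1.01 ± 0.20, adjusted p = 0.029) also rose, and Col14a1 fell (log2 change -0.87 ± 0.18, adjusted p = 0.045). Within adventitial cells, where Col14a1 was highest, its block means were close, 663 ± 106 CPM (SD, n = 3 hashtags) and 653 ± 96.8. They were 141 ± 37.5 and 67.9 ± 8.59 in alveolar cells. In activated cells they were 141 ± 50.9 and 63.9 ± 2.59, and Col14a1 was called in no type. Adventitial cells were a smaller part of fibroblast-like cells in every WT block 2 hashtag than in any of block 1. The part of this in the fall was not tested. In all, 5 of 32 members were higher and 1 lower, against 0.174% and 0.291% of the 17860 genes tested, and the members' median log2 change was 0.24 against 0.01 over all genes. Fewer cells of a type and less RNA per cell cannot be told apart in such sums over all fibroblast-like cells. Without WT hashtag A0302, or without A0304, 3 members passed; Col1a1, Col1a2 and Fn1 passed in all 17 fits that left out 1 hashtag, Col12a1 in 13, Tnc in 12 and Col14a1 in 4.

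**Figure D2:**
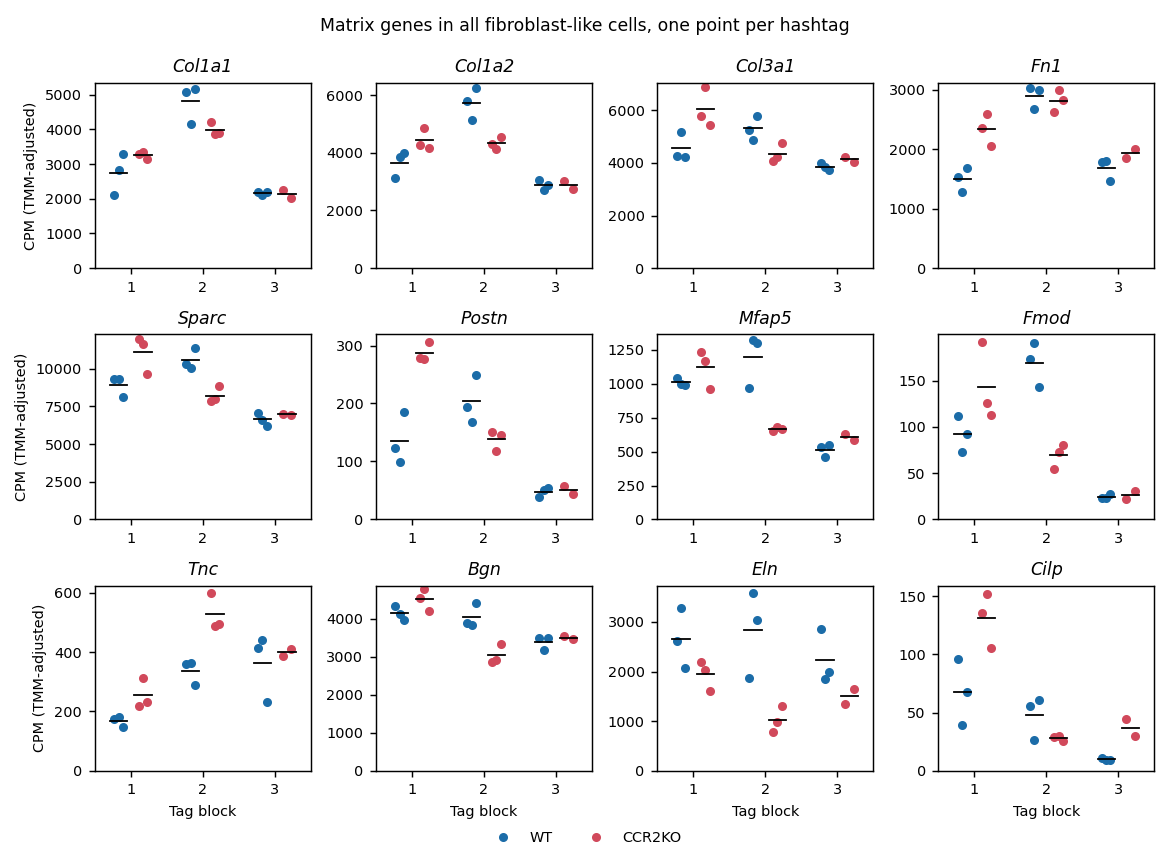
TMM-adjusted CPM (y axis, linear, from 0) of 12 members in all fibroblast-like cells by tag block (x axis); each point is a hashtag and each line a group mean. Col1a1 in WT lies between 4165 and 5180 in block 2, above every other WT hashtag, and Postn in CCR2KO is highest in block 1.

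In the next WT step, from block 2 to block 3, 14 of 32 members fell and none rose, against 1.40% and 0.896% of all genes tested. The members' median log2 change was -0.59 and that of all genes 0.002. Fmod dropped from 174, 190 and 143 CPM to 22.7, 23.2 and 27.6, with no overlap (log2 change -2.79 ± 0.23, adjusted p = 3.4e-06, edgeR). Ltbp2, a microfibril protein of the family named latent TGF-beta binding proteins, stood at 436, 612 and 687 CPM in block 2. In block 3 it stood at 94.2, 139 and 86.6 (log2 change -2.44 ± 0.24, adjusted p = 2.0e-05, edgeR). Postn went from 195, 169 and 250 CPM to 39.3, 50.0 and 53.4 (log2 change -2.10 ± 0.22, adjusted p = 2.5e-05). In each of these genes the lowest block 2 hashtag was above the highest of block 3 by a wide margin. Mfap5, a microfibril glycoprotein, changed by -1.22 ± 0.11, Col1a1 by -1.15 ± 0.12, Col1a2 by -0.99 ± 0.09 and Sparc by -0.67 ± 0.08. Fn1 fell by 0.78 on the log2 scale and Cilp, a cartilage matrix protein also made by fibroblasts, by 2.27. By role, 5 of 6 fibrillar collagens fell, all but the sparse Col5a3, as did 2 of 5 elastic fibre genes, 4 of 8 glycoproteins, and none of 3 crosslinking enzymes. Tnc did not follow: it stood at 359, 363 and 289 CPM in block 2 and at 415, 440 and 231 in block 3 (log2 change 0.10 ± 0.19, adjusted p = 0.91). Col3a1 lost its call without WT A0306, and the other 13 passed in all 17 fits that left out 1 hashtag.

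**Figure D3:**
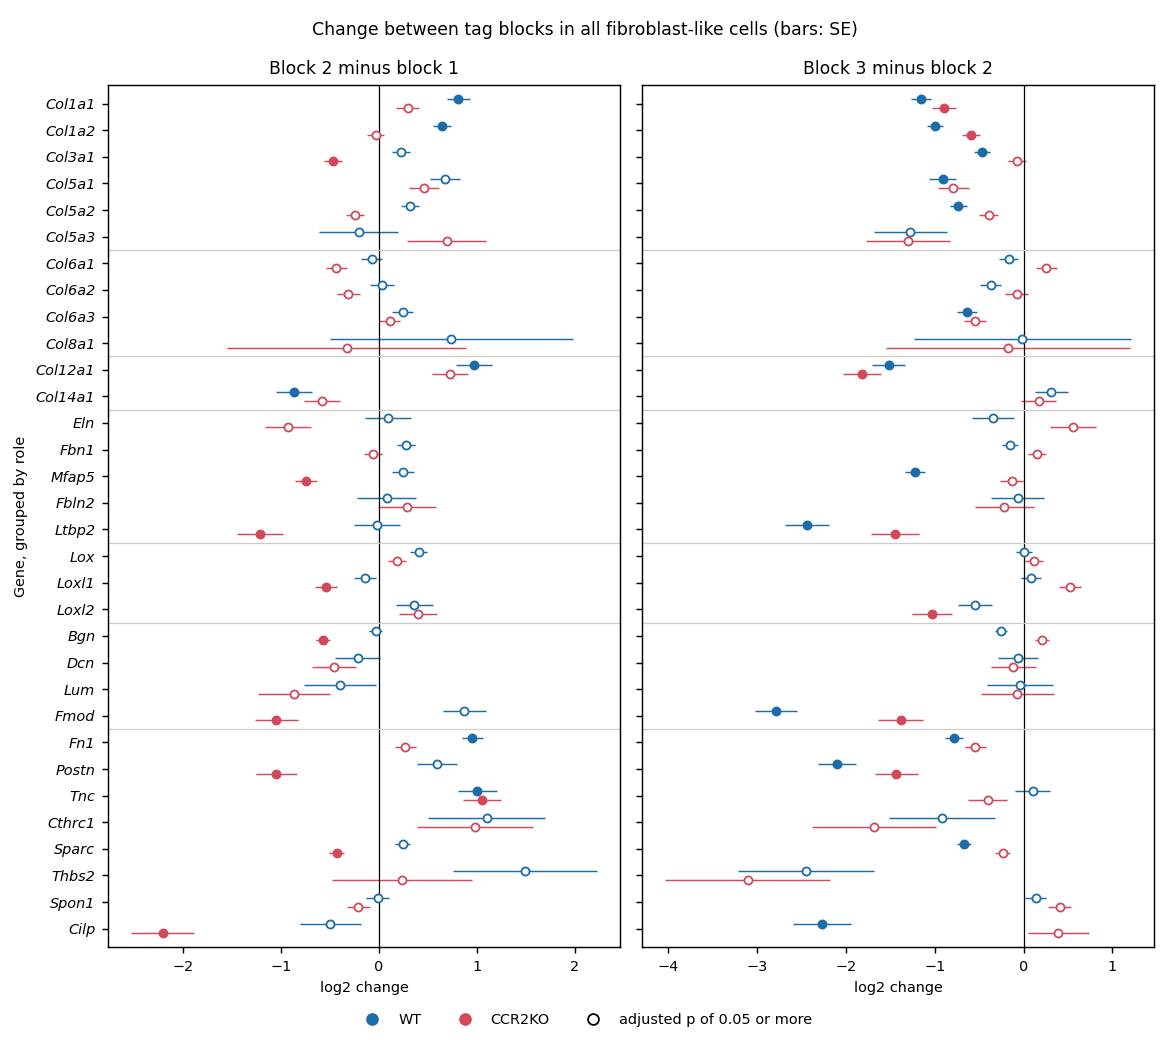
Log2 change (x axis) between tag blocks for each member (rows) in all fibroblast-like cells, block 2 minus block 1 at left and block 3 minus block 2 at right; points are edgeR estimates, bars are 1 SE, and filled points passed an adjusted p of 0.05. In WT, Fn1 lies at 0.95 at left and Fmod at -2.79 at right, and in CCR2KO Cilp lies at -2.21 at left.

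In CCR2KO, from block 1 to block 2, 9 of 32 members fell and 1 rose, against 0.840% and 0.873% of all genes tested, and the members' median log2 change was -0.28 against -0.003. Biglycan, Bgn, a proteoglycan that binds collagen and growth factors, stood at 4555, 4768 and 4208 CPM in block 1 and at 2862, 2917 and 3329 in block 2 (log2 change -0.57 ± 0.07, adjusted p = 0.00028, edgeR). Cilp dropped from 136, 152 and 105 CPM to 29.2, 30.3 and 25.2 (log2 change -2.21 ± 0.32, adjusted p = 0.0014). Mfap5 stood at 1234, 1166 and 965 CPM and then at 650, 681 and 671 (log2 change -0.75 ± 0.11, adjusted p = 0.0017). All 3 had every block 1 hashtag above every hashtag of block 2. Postn (log2 change -1.05 ± 0.21), Fmod (-1.05 ± 0.22), Ltbp2 (-1.22 ± 0.23), Loxl1 (-0.54 ± 0.11), Col3a1 (-0.47 ± 0.09) and Sparc (-0.43 ± 0.08) also fell. Tnc rose, from 218, 314 and 233 CPM to 601, 487 and 495 (log2 change 1.05 ± 0.20, adjusted p = 0.0092). Type I collagen had no called change here: Col1a1 stood at 3284, 3340 and 3147 CPM and then at 4206, 3869 and 3887 (log2 change 0.29 ± 0.11, adjusted p = 0.27). Without CCR2KO hashtag A0304 4 members passed, and without A0305 5.

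In CCR2KO, 7 of 32 members fell and none rose from block 2 to block 3, against 0.297% and 0.190% of all genes tested, with a median log2 change of -0.23 against -0.01. Col12a1 had the smallest adjusted p and fell from 198, 196 and 146 CPM to 46.8 and 55.2 (log2 change -1.82 ± 0.22, adjusted p = 0.0010, edgeR). Col1a1 dropped to 2259 and 2028 CPM (log2 change -0.90 ± 0.13, adjusted p = 0.0042) and Col1a2 to 3019 and 2745 (log2 change -0.59 ± 0.10, adjusted p = 0.012). Postn (log2 change -1.43 ± 0.24), Fmod (-1.38 ± 0.26), Ltbp2 (-1.44 ± 0.27) and Loxl2 (-1.03 ± 0.22) fell too, so that in block 3 Postn stood at 58.4 and 43.9 CPM, overlapping its WT values there. Block 3 rests on 2 hashtags, and leaving out either leaves 1, whose spread is then assumed to be that of the other groups. The count was 1 without A0308, 3 without A0307, and 4 without A0305 or A0306.

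The make-up of the fibroblasts differed between the blocks. Activated cells were 30.8% to 37.6% of fibroblast-like cells in WT block 1, 57.7% to 63.0% in block 2 and 18.8% to 25.3% in block 3, and in CCR2KO 41.5% to 50.9%, 43.8% to 49.2% and 18.0% to 22.3%. The members' share of all fibroblast reads stood at 3.78% to 4.05%, 4.53% to 5.08% and 3.04% to 3.28% in WT and at 4.32% to 4.83%, 3.80% to 4.00% and 3.19% to 3.34% in CCR2KO. In WT both shares were higher in block 2 than in blocks 1 and 3, without overlap, while from block 1 to block 2 in CCR2KO the activated shares overlapped and the members' share was lower in every hashtag of block 2. Markers of scar-type macrophages also differed between blocks: the 8 of 8 measured summed to 1912 to 3993, 3870 to 6207 and 1923 to 2200 CPM over the WT blocks and to 2192 to 2312, 3949 to 4334 and 1713 to 1939 over those of CCR2KO. Spp1, at 296 to 4337 CPM, and Cd63, at 1199 to 1764, made most of that sum, and none of the 8 was at 0 throughout a block. Mmp12, Arg1 and Ccl24 were near 0, at 0.741 to 7.82, 0.163 to 4.05 and 0 to 4.43 CPM in single hashtags. Trem2 stood at 0.107 to 20.3 CPM and Inhba at 13.3 to 152. Gpnmb was not near 0. It stood at 68.9, 66.5 and 140.0 CPM in WT block 1, 53.3, 29.0 and 54.4 in block 2 and 14.0, 8.63 and 19.3 in block 3, and at 117, 81.1 and 94.7, then 27.6, 42.6 and 43.1, then 23.4 and 8.36 in CCR2KO, highest in block 1 of both. The 8 of 8 interstitial macrophage markers summed to 1471 to 1515, 955 to 1357 and 595 to 747 CPM over the WT blocks and to 1506 to 1767, 792 to 999 and 793 to 850 over those of CCR2KO, none at 0 throughout a block. C1qa, at 1.19 to 21.5 CPM, was a small part of that sum. The other genes of this list were not taken singly, so which of them made the sum is not given. The 6 classical monocyte markers summed to 648 to 1061, 777 to 996 and 438 to 587 CPM in WT and to 645 to 675, 446 to 460 and 420 to 468 in CCR2KO. Mitochondrial reads were 5.54% to 6.49% in every hashtag, and genes detected per fibroblast-like cell at 5000 reads averaged 964 to 1120 in WT hashtags and 863 to 1024 in CCR2KO. The 15 smooth muscle and pericyte markers summed to 716 to 1117, 1001 to 1423 and 752 to 772 CPM over the WT blocks and to 1220 to 1605, 1399 to 1814 and 696 to 798 over those of CCR2KO. For the monocyte and the smooth muscle and pericyte lists, too, only sums were taken. The part of these values in the results was not tested.

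Between genotypes, genotype and cartridge cannot be told apart, since each genotype is 1 library. In block 1, 5 of 32 members were higher in CCR2KO fibroblast-like cells and none lower, against 0.375% and 0.426% of all genes tested, and the median log2 difference was 0.33 against 0.01. Fn1 stood at 2354, 2596 and 2052 CPM in CCR2KO against 1523, 1279 and 1678 in WT, without overlap (log2 difference 0.64 ± 0.10, adjusted p = 0.0055, edgeR). Postn stood at 278, 276 and 305.7 CPM against 123, 98.7 and 186 in WT (log2 difference 1.08 ± 0.21, adjusted p = 0.021). Col6a3 (0.54 ± 0.11), Fbn1, the fibrillin of microfibrils (0.42 ± 0.09), and Col3a1 (0.41 ± 0.09) were higher as well. Only Fn1 passed in all 17 fits without 1 hashtag. The count was 1 without CCR2KO A0301 or A0302, 2 without WT A0301 or A0302, and 3 without WT A0303 or CCR2KO A0307 or A0308.

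In block 2, 6 of 32 members were lower in CCR2KO and none higher, against 0.599% and 0.230% of all genes tested. Eln stood at 783, 984 and 1299 CPM in CCR2KO and at 1862, 3587 and 3034 in WT (log2 difference -1.47 ± 0.24, adjusted p = 0.0038, edgeR). Mfap5 stood at 650, 681 and 671 CPM against 969, 1321 and 1298 in WT (log2 difference -0.84 ± 0.11, adjusted p = 0.00066). Fmod stood at 54.9, 72.3 and 80.7 CPM against 174, 190 and 143 in WT (log2 difference -1.29 ± 0.22, adjusted p = 0.0065). None of these 3 overlapped between the genotypes. Bgn (log2 difference -0.41 ± 0.07, adjusted p = 0.0059), Col1a2 (-0.40 ± 0.09, adjusted p = 0.045) and Sparc (-0.36 ± 0.08, adjusted p = 0.036) were lower by less. The median over the 32 members was -0.16 against -0.005 over all genes, and 2 members passed without CCR2KO A0304. DESeq2 called 3 members higher and 8 lower, without a share of all genes, which was not taken for DESeq2. Eln also stood lower in CCR2KO hashtags of block 1, at 2195, 2025 and 1611 CPM against 2613, 3277 and 2066 in WT, with overlap and no call (adjusted p = 0.42). In block 3, 1 of 32 members passed, against 0.0784% of all genes higher and 0.151% lower: Cilp, at 44.2 and 29.9 CPM in CCR2KO and 11.0, 9.10 and 9.65 in WT (log2 difference 1.90 ± 0.35, adjusted p = 0.028). That call was lost without WT A0307, A0308 or A0309 or CCR2KO A0307 or A0308.

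The test of the difference between the 2 block changes, CCR2KO change minus WT change, gave 7 of 32 members with a lower change from block 1 to block 2 in CCR2KO and none with a higher one, against 0.112% and 0.00560% of all genes tested. This test cancels a constant difference between the libraries, but its groups are those of the comparisons above. The differences were -1.92 ± 0.31 for Fmod, -0.99 ± 0.16 for Mfap5 and -0.68 ± 0.11 for Sparc, each with an adjusted p of 0.025 (edgeR). They were -1.64 ± 0.29 for Postn, -0.69 ± 0.13 for Col3a1, -0.68 ± 0.13 for Col1a2 and -0.54 ± 0.10 for Bgn, each with an adjusted p of 0.042. Of all 32 members 27 had an estimate below 0, and the median was -0.43 against -0.02 over all genes. Fn1, with -0.69 ± 0.15, missed the threshold (adjusted p = 0.099), and Tnc had an estimate of 0.045 ± 0.28. These tests are of pooled cells, whose make-up differed between blocks as given above, and none of the 7 passed within activated, alveolar or adventitial cells alone. No member passed without WT A0306 or CCR2KO A0301, A0302, A0304 or A0305, 3 or 4 passed without WT A0301, A0302, A0304, A0307, A0308 or A0309, and none passed under a stricter filter on cells. From block 2 to block 3, Mfap5 alone passed, against 0.0224% of all genes higher and none lower, with a difference of 1.08 ± 0.17 (adjusted p = 0.039). It passed in 5 of 17 fits that left out 1 hashtag: those without WT A0301, A0302 or A0304 or CCR2KO A0303 or A0306.

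**Figure D4:**
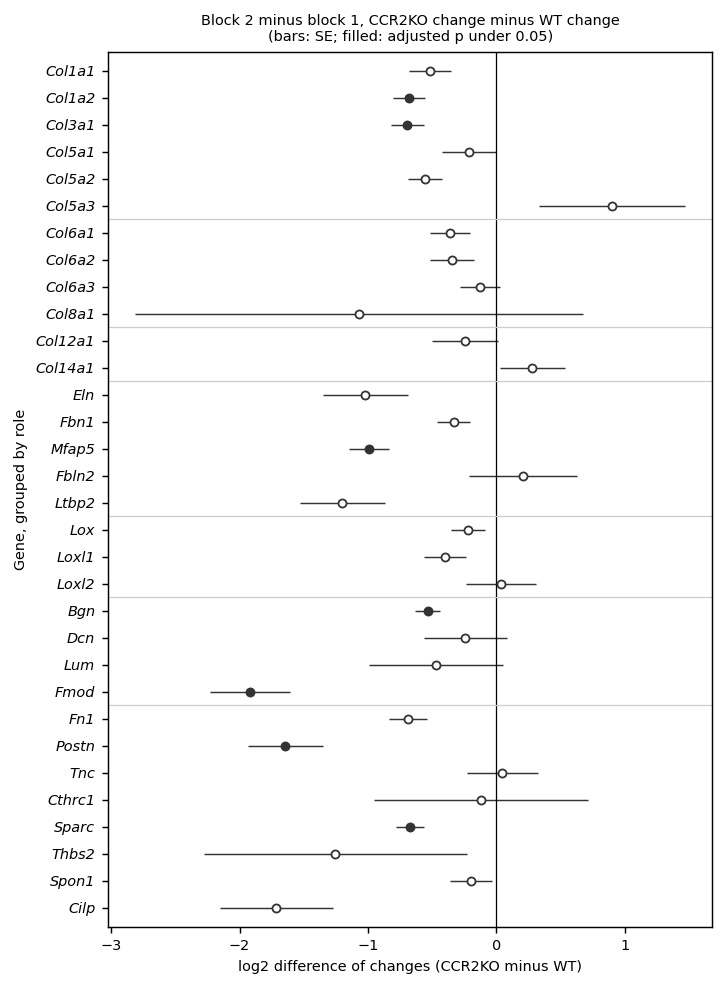
Log2 difference of changes (x axis), the CCR2KO change from block 1 to block 2 minus the WT change, for each member (rows) in all fibroblast-like cells; points are edgeR estimates, bars 1 SE, and the 7 filled points passed an adjusted p of 0.05. Fmod lies furthest below 0, at -1.92.

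Within activated fibroblast-like cells several of these block changes were also called. These cells are part of the sums above, so the values are not independent of them. In WT from block 1 to block 2, Col1a1 (log2 change 0.86 ± 0.11, adjusted p = 0.0020, edgeR) and Col1a2 (0.67 ± 0.09, adjusted p = 0.0022) rose, 2 of 32 members against 0.0388% of the 15463 genes tested. Fn1 did not pass there: it stood at 2063, 1765 and 2540 CPM and then at 3383, 3179 and 3780, without overlap (log2 change 0.70 ± 0.15, adjusted p = 0.096). From block 2 to block 3, 15 members fell and 1 rose, against 1.76% and 1.61% of all genes, and the median log2 change was -0.72 against -0.04. Col1a2 fell from 6569, 6023 and 7221 CPM to 2936, 2469 and 2727 (log2 change -1.28 ± 0.09, adjusted p = 2.9e-07), and Postn from 276, 245 and 364 to 67.5, 85.0 and 76.7 (log2 change -1.95 ± 0.24, adjusted p = 0.00012). The member that rose was Tnc, which went from 467, 485 and 393 CPM to 1097, 1100 and 535 (log2 change 1.02 ± 0.22, adjusted p = 0.012). The count of 16 was 9 without WT A0306 and 10 without WT A0307, and the 2 called in the first step were 5 without WT A0303.

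In activated cells of CCR2KO, 6 of 32 members fell and 2 rose from block 1 to block 2, against 0.789% and 0.931% of all genes tested. Bgn fell from 4213, 4501 and 3689 CPM to 2250, 2457 and 2721 (log2 change -0.74 ± 0.12, adjusted p = 0.0045, edgeR), and Postn from 438, 513 and 573 to 208, 173 and 210 (log2 change -1.37 ± 0.23, adjusted p = 0.0045). Neither gene's groups overlapped. Fmod (-1.57 ± 0.30), Ltbp2 (-1.40 ± 0.31), Cilp (-3.86 ± 0.89) and Sparc (-0.39 ± 0.09) fell as well, and Tnc (0.96 ± 0.22) and Col1a1 (0.49 ± 0.11) rose. The rise of Col1a1 in this type stands beside an uncalled one in the pooled cells. Over the step to block 3, 6 members fell and none rose, against 0.246% and 0.0582% of all genes: Col1a2 (-0.83 ± 0.10), Col1a1 (-0.95 ± 0.13), Col12a1 (-1.56 ± 0.26), Postn (-1.30 ± 0.27), Col5a2 (-0.615 ± 0.13) and Fmod (-1.71 ± 0.36). The first of these counts was 1 without CCR2KO A0304, 2 without A0305, and 3 without A0301 or A0302. The second was 2 without CCR2KO A0305 and 3 without any of WT A0301, A0304, A0305 or A0309 or CCR2KO A0301, A0302, A0304 or A0306.

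**Figure D5:**
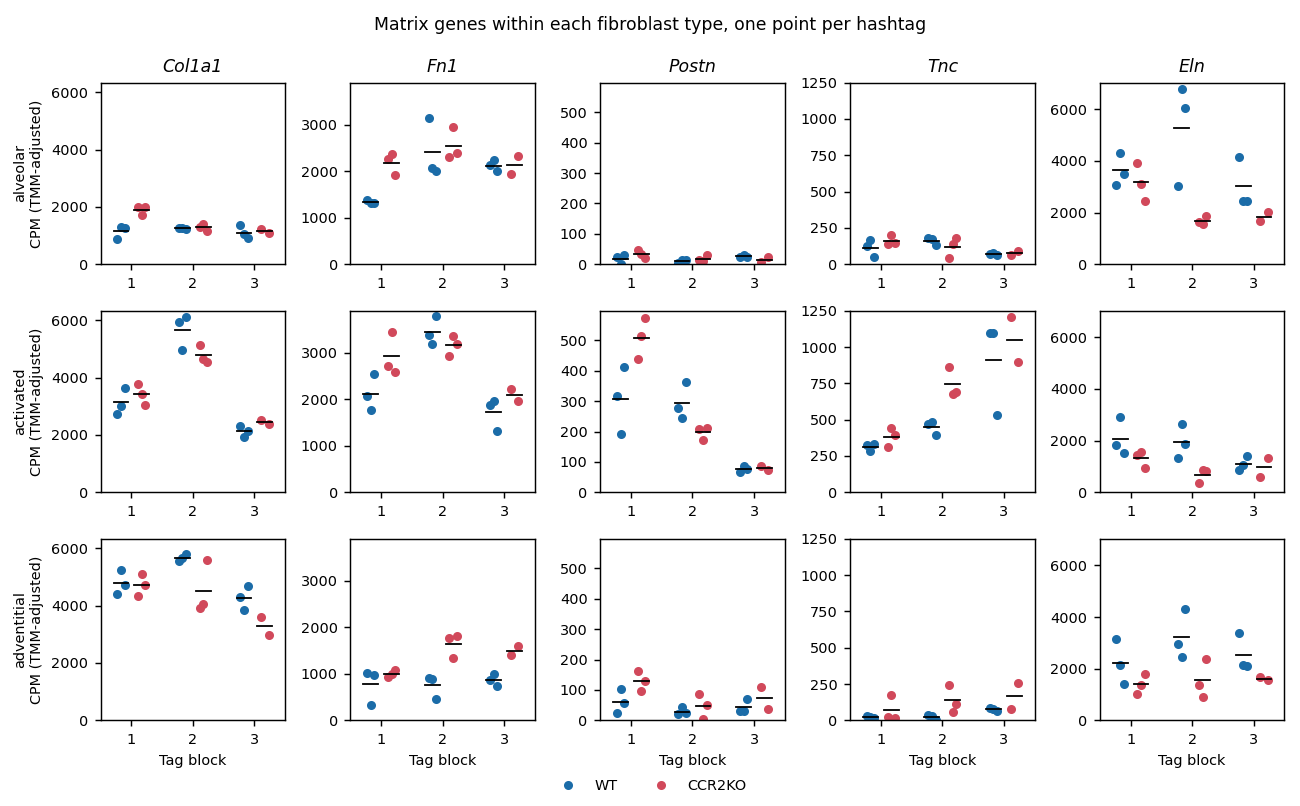
TMM-adjusted CPM (y axis, linear, same scale down each column) of 5 members (columns) in alveolar, activated and adventitial fibroblast-like cells (rows) by tag block (x axis); each point is a hashtag, each line a group mean. Col1a1 lies at 4952 to 6124 in WT activated cells of block 2, and lies between 1238 and 1258 in WT alveolar cells of that block.

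In alveolar and in adventitial fibroblast-like cells no member passed in any of the 4 block comparisons, while of all genes 0.0196%, 0.0393%, 0% and 0% of 15270 were called in alveolar cells, in the order given next, and 0% of 13908 in each adventitial comparison. At an unadjusted p under 0.05 from edgeR, the members counted 8, 10, 16 and 3 in alveolar cells (WT block 2 minus 1, WT 3 minus 2, CCR2KO 2 minus 1, CCR2KO 3 minus 2) and 4, 3, 3 and 4 in adventitial cells. At that same threshold stood 1154, 1094, 1191 and 632 of all 15270 genes in alveolar cells. In adventitial cells it was 987, 854, 885 and 650 of 13908. DESeq2 called 2, 4, 5 and 0 members in alveolar cells and 0, 1, 0 and 0 in adventitial cells. How many of all genes DESeq2 called was not taken, so these counts cannot be read as particular to the members. Adventitial cells were few, 25 to 77 per hashtag. In alveolar cells, 1 member passed the first WT step without WT A0306 or CCR2KO A0304 or A0305, and in the first CCR2KO step 2 passed without CCR2KO A0303 and 1 without WT A0304, A0307 or A0309 or CCR2KO A0308. Though not called, Fn1 in alveolar cells stood at 1374, 1319 and 1309 CPM in WT block 1 and at 3149, 2079 and 2008 in block 2, without overlap. In adventitial cells Dcn ranged from 4847 to 9183 CPM over the 9 WT hashtags and from 3973 to 12135 over the 8 of CCR2KO, and in CCR2KO the 2 hashtags of block 3, at 6645 and 3973, lay below all of block 2, at 6738 to 8614.

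Comparisons between genotypes within the fibroblast types were added after seeing the data, and their values under the alternatives were not examined. In activated cells none of the 7 members called above passed the test of the difference of changes from block 1 to block 2. With edgeR 0 of 32 members passed, against 0% of all genes in either direction. At an unadjusted p under 0.05 from edgeR stood 11 members, and 1236 of all 15463 genes. The estimates there were -1.79 ± 0.42 for Fmod (adjusted p = 0.19), -1.30 ± 0.32 for Postn (0.21), -0.97 ± 0.27 for Mfap5 (0.30) and -0.59 ± 0.12 for Col1a2 (0.15). For block 2 to block 3 the count was 0 of 32 as well, against 0.00647% of all genes higher and 0% lower. Here 16 members and 1176 of all genes stood at an unadjusted p under 0.05 from edgeR. In block 1 no member passed between the genotypes, where 5 passed in the pooled cells. Of all genes 0.0517% were called higher and 0.181% lower. At an unadjusted p under 0.05 from edgeR stood 8 members and 1738 of all genes. In block 2, 4 of 32 were lower in CCR2KO activated cells and none higher, against 0.356% and 0.162%: Bgn (log2 difference -0.70 ± 0.12, adjusted p = 0.012), Mfap5 (-1.01 ± 0.19, 0.018), Col1a2 (-0.45 ± 0.09, 0.022) and Fmod (-1.49 ± 0.30, 0.028). In block 3 none passed, against 0.0259% and 0.123% (5 members and 1426 of all genes at an unadjusted p under 0.05, edgeR).

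In alveolar cells, Col3a1 was higher in CCR2KO in block 1 (log2 difference 0.66 ± 0.13, adjusted p = 0.049, edgeR), 1 of 32 members against 0.170% of all genes in either direction. Elastin was lower in CCR2KO alveolar cells of block 2, where Eln stood at 1642, 1551 and 1878 CPM against 3033, 6770 and 6052 in WT, without overlap (log2 difference -1.64 ± 0.25, adjusted p = 0.0083). It was the 1 of 32 members called there, against 0.131% of all genes. No member passed in alveolar cells of block 3 (0.0327% of all genes) or for either difference of changes (0% of all genes). At an unadjusted p under 0.05 from edgeR these 3 comparisons held 4, 12 and 7 members, and 598, 1200 and 818 of all 15270 genes. In adventitial cells none passed in blocks 1, 2 and 3, against 0.0503%, 0.0360% and 0.0360% of all genes, or for the differences of changes, against 0%. At an unadjusted p under 0.05 from edgeR those 5 comparisons held 8, 10, 3, 3 and 0 members. Of all 13908 genes they held 1102, 1275, 639, 1018 and 736.

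Genes that fold, modify and trim collagen were listed apart from the members. Of 29 such genes measured in all fibroblast-like cells, 2 rose and 1 fell from block 1 to block 2 in WT, against 0.174% and 0.291% of all genes tested. From block 2 to block 3, 1 rose and 5 fell, against 0.896% and 1.40%. In CCR2KO none rose and 1 fell over the first step, against 0.873% and 0.840%, and none rose and 4 fell over the second, against 0.190% and 0.297%. Bmp1, the protease that removes the C-terminal propeptide of procollagen, rose by 0.86 ± 0.12 (log2, adjusted p = 0.0025, edgeR) and then changed by -1.66 ± 0.13 (adjusted p = 1.1e-06) in WT, and by -0.76 ± 0.14 from block 2 to block 3 in CCR2KO. Serpinh1, the collagen chaperone HSP47, changed by -0.57 ± 0.07 in WT and by -0.51 ± 0.08 in CCR2KO from block 2 to block 3. P4ha3, a prolyl hydroxylase subunit, changed by -1.92 ± 0.27 in WT and by -1.59 ± 0.31 in CCR2KO over the same step. Pcolce2, an enhancer of procollagen trimming that was also on the adventitial marker list, changed by -1.27 ± 0.18 from block 1 to block 2 in WT. Of 28 other matrix genes measured, 1 rose and 4 fell from block 1 to block 2 in WT and 0 and 4 in CCR2KO, among them Prelp (-0.78 ± 0.15 in WT, -0.85 ± 0.15 in CCR2KO) and Fbln1 (-0.70 ± 0.13 and -0.74 ± 0.13). Over the step to block 3 none rose and 5 fell in WT, while 1 rose and none fell in CCR2KO, read against the same shares of all genes as the first list. No gene of either list passed the test of the difference of changes. Like Pcolce2, the genes Fbln1, Mfap4, Col13a1 and Pcolce of these lists were also on the fibroblast marker lists used to name clusters.

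Several members passed no comparison in the pooled cells. Lox, lysyl oxidase itself, stood at 559 to 677, 828 to 848 and 752 to 918 CPM over the WT blocks and at 619 to 723, 725 to 811 and 790 to 862 over those of CCR2KO, the WT rise from block 1 to block 2 being 0.40 ± 0.09 (adjusted p = 0.068, edgeR). Dcn, Lum, Spon1, Fbln2, Col6a1, Col6a2, Col5a3, Col8a1, Cthrc1 and Thbs2 were likewise not called. Thbs2 stood at 89.4, 60.3 and 93.8 CPM in WT block 2 and at 13.9, 23.3 and 7.26 in block 3, without overlap, and its log2 change of -2.45 ± 0.76 had an adjusted p of 0.12. Cthrc1, a marker of collagen-producing fibroblasts in fibrotic lung, stood at 80.0, 55.7 and 95.3 CPM in WT block 2, and at 7.28, 13.6 and 87.2 in block 1, a group with 1 high hashtag. A member that was not called is not shown to be steady. Of the 32 members, 10 overlap an annotated gene on the opposite strand in GENCODE, among them Fn1, Tnc, Eln and Ltbp2, and whether the authors' counting used strand is not given in the sources used here, so reads of the 2 genes cannot be told apart.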

How the data were processed

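Cells of 2 BD Rhapsody libraries, 1 per genotype, were analysed. The deposited values are whole-number counts per gene and cell, made by the authors; Bowtie2 2.4.2, cutadapt 2.10, GRCm38 and R 3.6.3 are named, with no role or order, per the submitters' processing notes, and the counting rule, annotation and strand are not given in the sources used here. The median nonzero count was 9 in WT and 11 in CCR2KO, so the deposited counts were read as reads and not as molecules. Of the columns, 1213 had no hashtag of the study, most of them named as doublets, and were not used. Cells under 200 genes or over 25% mitochondrial reads were dropped, as were those that Scrublet called doublets. The kept cells were clustered with Scanpy 1.11.5 on 2000 variable genes (40 components, 20 neighbours, Leiden resolution 1.5), leaving out the 32 members, both lists of other matrix genes and Ccr2. A cluster took a name when at least 3 markers of a type were among its 100 leading genes, 1.5 times as many as for the next type. Counts were summed per hashtag and class and tested with edgeR 4.0.16 (TMM, filterByExpr, quasi-likelihood test, 6 groups of genotype and block, 17 hashtags), with Benjamini-Hochberg adjustment over all genes at 0.05. The standard error is the log2 change divided by the square root of F. Levels by population are plain CPM of these sums where a hashtag had at least 10 cells, and other levels are TMM-adjusted. To compare shares of cells, each cell was drawn down to 5000 reads, which left out 174 CCR2KO cells. Every member is named, and full statistics go to up to 8 members of smallest adjusted p in a comparison. Of the 2 other lists, up to 4 genes per comparison are named. Comparisons between genotypes within a fibroblast type were added after seeing the data. The members and lists were chosen with earlier results of these data known. The edgeR script was tested on counts simulated for WT block 2 minus block 1 in all fibroblast-like cells. It called 19% of genes changed 2-fold and 43% of those changed 4-fold, with 4 false calls among 17271 genes. The changed genes were drawn at random from all genes that passed the filter, so recovery of the members was not measured. Many real changes can thus go uncalled. Alternatives were DESeq2 1.42.0, no filter on low counts, a stricter cell filter (500 genes, 15% mitochondrial reads), doublets kept, resolution 0.8, members used in the clustering, each hashtag left out, and, chosen after seeing the data, each cell drawn to 5000 reads.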

Additional observations from a re-analysis of the deposited data

Results flagged for a closer look

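The change from block 1 to block 2 in all fibroblast-like cells differed between the genotypes for 7 members by the edgeR test of that difference, CCR2KO change minus WT change. The log2 differences were -1.92 for Fmod, -1.64 for Postn, -0.99 for Mfap5, -0.69 for Col3a1, -0.68 for Col1a2, -0.68 for Sparc and -0.54 for Bgn. From block 2 to block 3 the difference was 1.08 for Mfap5. Each genotype is 1 library, and leaving out 1 hashtag ended these calls in several fits: Fmod, Mfap5 and Sparc passed the first test in 12 of 17, Col1a2 and Postn in 6, Bgn in 5 and Col3a1 in 4, and Mfap5 passed the second in 5. Within activated, alveolar or adventitial fibroblast-like cells alone, 0 of 32 members passed either test with edgeR. At an unadjusted p under 0.05 from edgeR the first test held 11, 12 and 3 members and the second 16, 7 and 0. Of all 15463, 15270 and 13908 genes, the first held 1236, 1200 and 1018 and the second 1176, 818 and 736.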

How the results depend on the processing

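No member called in all fibroblast-like cells, or in a block step within a type, reversed its sign under any alternative (89 called values). Calls between genotypes within a type were not part of this check. No paired analysis was possible because the titles give each genotype 1 replicate number, and a tag number shared by both libraries is not a pair. Counts of members called that moved by over 1.5 times follow, in all fibroblast-like cells unless a type is named. With DESeq2 they were 12 for CCR2KO block 3 minus 2, 9 (all higher), 11 (3 higher and 8 lower, where edgeR called only lower ones) and 3 (all higher) for CCR2KO minus WT in blocks 1, 2 and 3, 3 for the difference of changes from block 2 to 3, 2, 4 and 5 in alveolar cells (WT block 2 minus 1, WT 3 minus 2, CCR2KO 2 minus 1), 1 in adventitial cells (WT 3 minus 2) and 5 in activated cells (WT 2 minus 1). With the stricter cell filter they were 1 and 0 for CCR2KO minus WT in blocks 1 and 3, 0 for both differences of changes, 1 in alveolar cells (WT 2 minus 1) and 3 in activated cells (CCR2KO 3 minus 2). With doublets kept that last count was also 3. With no filter on low counts they were 2 for the difference of changes from block 2 to 3, 1 and 5 in alveolar cells (WT and CCR2KO 2 minus 1) and 3, 2, 2 and 1 in adventitial cells. With members used in the clustering they were 8 and 0 for CCR2KO minus WT in blocks 1 and 3 and 1 in adventitial cells (WT 2 minus 1). At resolution 0.8, 2 members passed in alveolar cells (CCR2KO 2 minus 1). With each cell at 5000 reads they were 3, 10 and 0 for CCR2KO minus WT in blocks 1, 2 and 3, and 1, 3 and 3 in alveolar cells. The cause of these moves was not tested. Shares of all genes called were not taken under the alternatives, so a move cannot be read as particular to the members. Leaving out 1 hashtag gave 3 to 6 and 13 to 15 members for the WT steps, 4 to 12 and 1 to 10 for the CCR2KO steps, 1 to 5, 2 to 6 and 0 to 1 for CCR2KO minus WT in blocks 1, 2 and 3, and 0 to 7 and 0 to 2 for the differences of changes. In activated cells it gave 2 to 5 and 9 to 17 (WT) and 1 to 9 and 2 to 7 (CCR2KO), in alveolar cells 0 to 1, 0 to 0, 0 to 2 and 0 to 0, and in adventitial cells 0 to 0 throughout. Adventitial cells were few, 25 to 77 per hashtag.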
